A study of Homo sapiens with 4 samples.

Results

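The genes described here are 34 human genes of glycolysis, gluconeogenesis and the pentose phosphate pathway, chosen by name and matched through their Ensembl identifiers to the 20348 genes of the deposited count table, which holds all 34. RNA was sequenced from K562, an established line from chronic myeloid leukemia, and from THP-1, an established line from acute monocytic leukemia. The series forms 4 groups of 1 library each, which are either line in DMSO or in 100 nM periplocin, all taken at 72 h. Periplocin is a cardiac glycoside from Cortex periplocae, a medicinal root bark. The sample titles call the control libraries blank, whereas the library names and the methods give DMSO. With 1 library per condition there was no replicate check, so every fold change within a line compares 2 libraries and its interval covers counting error only.

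Glycolysis splits glucose into pyruvate in a preparatory phase that spends ATP and a payoff phase that returns it, and most steps are served by several isoenzymes encoded by separate genes. Gluconeogenesis runs the pathway backwards through its own enzymes at the irreversible steps, and the pentose phosphate pathway branches from glucose phosphate to give NADPH and ribose phosphate. Leukemia cells are known for high glucose uptake and lactate export, and red cells, toward which K562 can mature, live on glycolysis.

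The K562 libraries held 16381158 counts (DMSO) and 16560544 counts (periplocin), and the THP-1 libraries 20622681 and 17721486. Mitochondrially encoded genes took 2.07% to 5.62% of the counts, and their share in K562 was 5.62% in DMSO and 2.07% in periplocin. The lines carried their own markers. A list of 10 erythroid genes summed to 2377.8 CPM, counts scaled by the library total, in K562 DMSO and 25.8 CPM in THP-1 DMSO, and a list of 10 monocytic genes to 96.4 CPM and 1772.3 CPM. The lymphocyte list of 5 genes summed to between 0.776 and 8.55 CPM, with MS4A1 at 0 counts in all libraries. CD3D made up most of the sum in K562, with 121 counts in DMSO and 105 in periplocin (7.39 and 6.34 CPM). CD3E had 10 and 5 counts in K562, and both genes had 0 counts in THP-1. The erythroid list stood at 8316.2 CPM in K562 periplocin, with 7 of its 10 genes at least 2-fold higher than in DMSO. The part of these shifts in the results below was not tested. In RNA from whole cultures, fewer cells of a type and less RNA per cell cannot be told apart.

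Upstream sequence was searched for letters shared by members that moved together. RefSeq windows on GRCh38.p14 were found for 31 of the 34 members, as 61 windows, and the 250 bases upstream of each start were read on both strands. SLC2A3, SLC16A1 and PCK1 had no entry. The E-box CACGTG, the letters bound by MYC and its relatives, was in 14.8% of the member windows and in 6.34% of all 35116 windows. It lay near HK2, PFKFB3, ALDOA, ALDOC, GAPDH, LDHA and G6PC3. The core of the hypoxia element, ACGTG or GCGTG, was in 52.5% of the member windows and 43.2% of all windows, and every CACGTG contains an ACGTG. The letters TGATGNAA, read by ATF4 with its partners and with N for any base, were in 3.28% against 3.14%, and the GATA letters AGATAA were in 6.56% against 9.17%. Windows of 1 gene can overlap, so windows are not independent. The stretches shown are each upstream of a RefSeq start of HK2 and G6PC3, which were lower in both drug libraries, and of PGK1, which was not. That of G6PC3 lies before the GENCODE gene start. Those of HK2 and PGK1 lie inside the gene span, which begins at 74833981 for HK2 and 77910739 for PGK1, so they precede internal starts. The HK2 window at the gene start had no E-box. No exon of the gene in GENCODE release 29 overlaps any of these stretches. All are on the plus strand, 5′ to 3′, with E-boxes in capitals for HK2 and G6PC3 and hypoxia cores in capitals for PGK1.
HK2 chr2:74834941-74835060, first E-box bases at -194 and -149 from the start site: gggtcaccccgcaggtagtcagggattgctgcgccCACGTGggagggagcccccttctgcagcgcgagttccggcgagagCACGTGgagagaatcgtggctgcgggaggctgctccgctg
G6PC3 chr17:44070553-44070672, first E-box base at -11: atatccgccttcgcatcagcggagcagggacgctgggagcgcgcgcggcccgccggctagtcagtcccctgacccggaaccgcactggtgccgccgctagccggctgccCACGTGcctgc
PGK1 chrX:78103998-78104117, first core bases at -211, -202 and -183: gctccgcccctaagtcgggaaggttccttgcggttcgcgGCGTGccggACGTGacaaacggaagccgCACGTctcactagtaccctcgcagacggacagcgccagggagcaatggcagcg
A match is a description of the letters and not a shown binding site. The E-box was near genes with unlike changes. By sign, HK2, G6PC3 and GAPDH were lower in both lines, and LDHA and ALDOA were higher in both. ALDOC was higher in K562 and lower in THP-1, and PFKFB3 the reverse. Among the members at least 2-fold lower in both lines, SLC2A3 could not be searched, only HK2 had an E-box in its windows, PFKL had a GCGTG, and GALK1 and PCK2 had none of the 4 motifs.

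The first question was how the pathway responded to periplocin in each line. A gene was tested if its mean over the pair of libraries was at least 1 CPM, and it was counted as past the fold at 2-fold or more after TMM scaling. In K562, 33 members were tested, of which 7 were at least 2-fold higher and 8 at least 2-fold lower in periplocin, where 8.86% of all 11863 tested genes were higher and 11.6% lower. The higher members were PCK1, SLC2A1, PFKFB4, ALDOC, PC, ENO2 and TPI1, and the lower ones were GALK1, PCK2, PGLS, SLC2A3, SLC16A3, PFKFB3, HK2 and PFKL. The median log2 fold change of the members was 0.04, beside -0.01 for all tested genes, so the members spread to either side without a shift of the middle. In THP-1, 33 members were tested, of which 2 were higher (ENO2 and PKM) and 8 lower (GALK1, FBP1, SLC2A3, PCK2, PC, HK2, PFKL and G6PC3), where 8.03% of 12339 tested genes were higher and 10.5% lower. The median of the members in THP-1 was -0.51 beside -0.02 for all genes, and 24 of the 33 had a negative log2 fold change, as did 6355 of the 12339. FBP1 had 0 counts in K562 and PCK1 had 0 counts in THP-1, and these were the members not tested in that line.

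**Figure D1:**
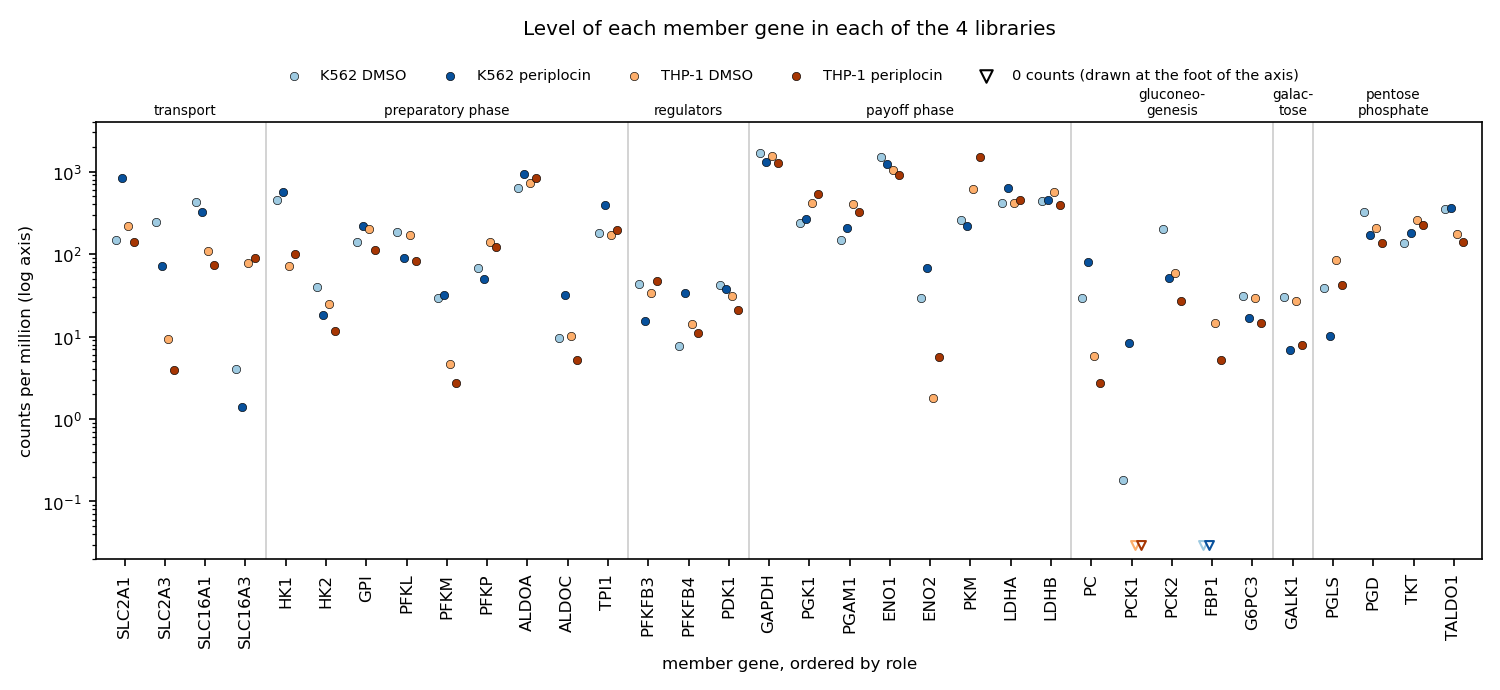
CPM of each of the 34 members (log axis) in the 4 libraries, 1 point per library, grouped by role, with genes at 0 counts as open triangles at the foot of the axis. Among others, SLC2A3, HK1, PFKM, ENO2 and PC sit lower in both THP-1 libraries than in both K562 libraries, and SLC16A3, PKM and PGAM1 sit higher.

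**Figure D2:**
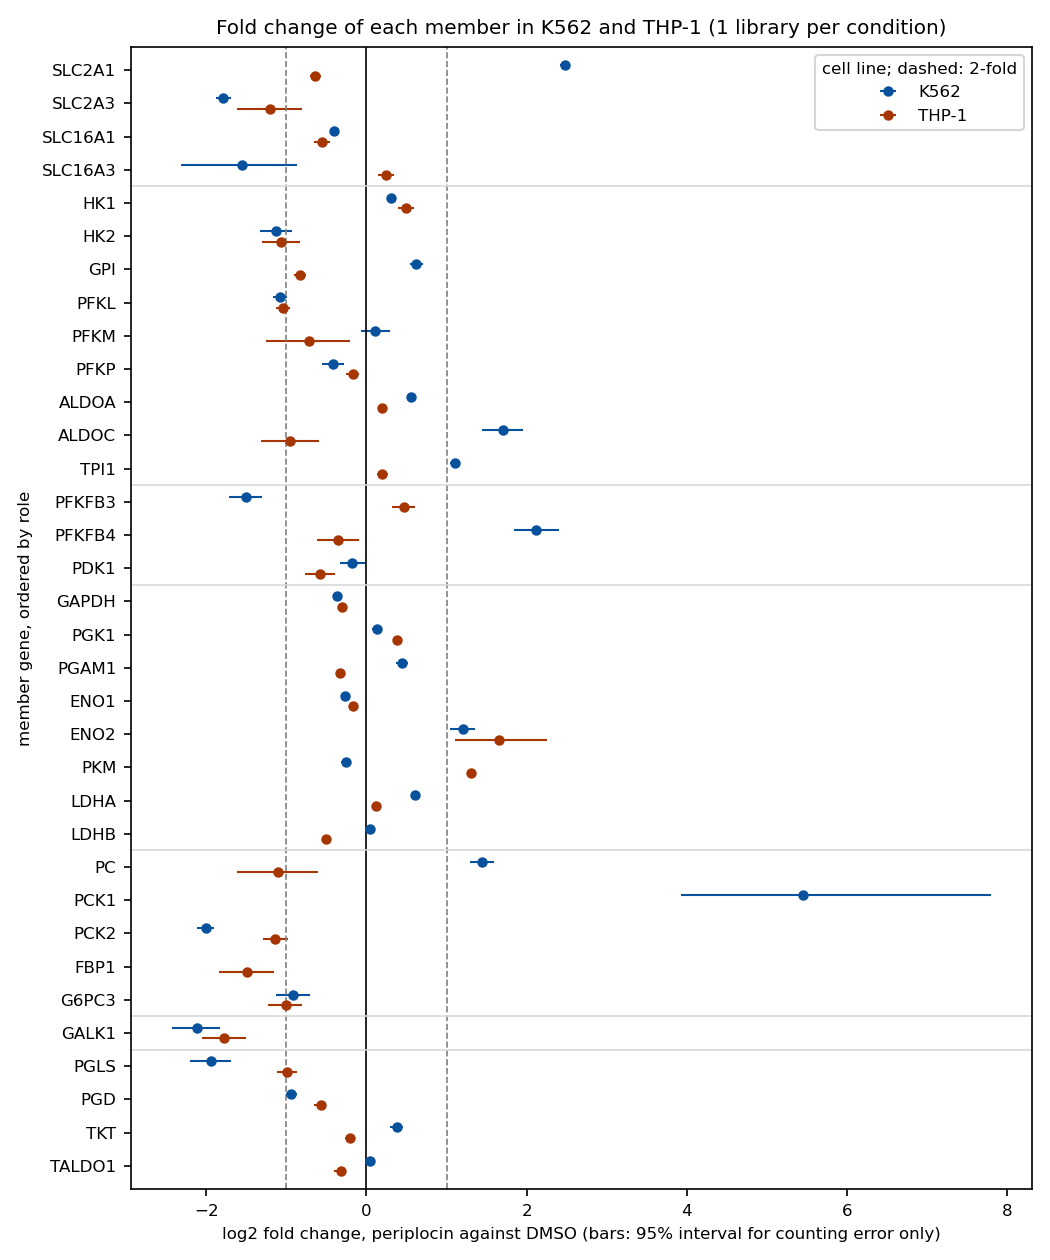
Log2 fold change of each member, periplocin against DMSO, in K562 (blue) and THP-1 (brown), with 95% intervals for counting error as bars and 2-fold as dashed lines. GALK1, PCK2, SLC2A3, HK2 and PFKL lie past the lower dashed line in both lines, and ENO2 lies past the upper one in both.

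Values given in pairs are DMSO first and periplocin second. Among the transporters, the pair of glucose carriers changed places in K562. SLC2A1 (GLUT1, the main glucose carrier of red cells, chr1:42925375-42959176, minus strand) had 149.9 CPM in DMSO and 842.9 in periplocin in K562, and 220.5 and 140.2 in THP-1. It was 5.58-fold higher with periplocin in K562 (log2 2.48, counting interval 2.42 to 2.54), rank 141 of 11863 genes from the highest fold, and lower in THP-1 (log2 -0.64, -0.71 to -0.57). SLC2A3 (GLUT3, a high-affinity glucose carrier, chr12:7919230-7936275, minus strand) had 243.1, 71, 9.3 and 3.98 CPM in the same order. Its level was 3.45-fold lower with periplocin in K562 (log2 -1.79) and 2.3-fold lower in THP-1 (log2 -1.20, -1.62 to -0.80, from 192 and 71 counts). The periplocin libraries held less SLC2A3 in both lines, and more SLC2A1 in K562 but not in THP-1. The erythroid marker list was 8316.2 against 2377.8 CPM in the same K562 pair. The lactate carriers among the members were SLC16A1 (MCT1) and SLC16A3 (MCT4, the carrier of cells that export much lactate). SLC16A1 had 433.2 and 327.7 CPM in K562 and 108.1 and 73.4 CPM in THP-1, lower in both by less than 2-fold (log2 -0.41 and -0.55). SLC16A3 was scarce in K562, with 67 counts in DMSO and 23 in periplocin (log2 -1.56, -2.32 to -0.87), and plentiful in THP-1, with 1597 and 1607 counts (log2 0.24).

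In the preparatory phase, hexokinase 2 and the liver-type phosphofructokinase were lower in both drug libraries. HK2 (chr2:74833981-74893359, plus strand), the inducible hexokinase that traps glucose in the cell, had 39.5 CPM in DMSO and 18.2 in periplocin in K562, and 24.5 and 11.6 in THP-1. Its log2 fold change was -1.13 in K562 and -1.07 in THP-1, and both counting intervals (-1.33 to -0.93 and -1.31 to -0.83) span the 2-fold line. HK1, the constitutive hexokinase, went the other way with 449.4 and 560.4 CPM in K562 and 71.2 and 99.3 CPM in THP-1 (log2 0.31 and 0.49). PFKL (chr21:44300051-44327376, plus strand) encodes the liver-type subunit of phosphofructokinase, the committed step of glycolysis. It had 186.1 and 88.8 CPM in K562 and 169.5 and 81.8 CPM in THP-1, so that the lines began and ended at like levels (log2 -1.08, -1.17 to -0.99, and -1.04, -1.13 to -0.95). The other subunits moved less, with PFKM at 29.2 and 31.8 CPM in K562 and 4.61 and 2.77 CPM in THP-1 (log2 0.11 and -0.72), and PFKP at 66.9 and 50.5 CPM and 138.8 and 122.6 CPM (log2 -0.42 and -0.17).

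Of the other preparatory enzymes, TPI1 and ALDOC were past 2-fold higher in K562, while ALDOA and GPI were not, and in THP-1 all of these stayed within 2-fold. TPI1, triose phosphate isomerase (chr12:6867119-6870948, plus strand), had 180.1 and 388.8 CPM in K562 (log2 1.10, 1.04 to 1.16) and 172.4 and 196.3 CPM in THP-1 (log2 0.20). ALDOA, the main aldolase of blood cells, had 636.1 and 944.3 CPM in K562 and 732.5 and 836.9 CPM in THP-1 (log2 0.56 and 0.20). ALDOC, the brain-type aldolase, had 159 and 526 counts in K562 and 211 and 93 counts in THP-1. It was 3.25-fold higher in K562 (log2 1.70, 1.44 to 1.96) and 1.93-fold lower in THP-1 (log2 -0.95, -1.32 to -0.59). GPI, the isomerase between glucose and fructose phosphate, also parted between the lines, with 139.6 and 216.2 CPM in K562 (log2 0.62) and 200.5 and 112.1 CPM in THP-1 (log2 -0.83).

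Of the regulators, the paired kinases that make the sugar phosphate signal activating phosphofructokinase showed a crossed pattern. PFKFB3 (chr10:6144934-6254644, plus strand), the form with the highest kinase activity, had 43.2 CPM in DMSO and 15.3 in periplocin in K562, and 34.2 and 46.9 in THP-1. PFKFB4 (chr3:48517684-48562015, minus strand) had 7.69, 33.7, 14.1 and 10.9 CPM. In K562, PFKFB3 was 2.85-fold lower (log2 -1.51, -1.72 to -1.30) and PFKFB4 was 4.34-fold higher (log2 2.12, 1.84 to 2.41). In THP-1 the signs were the reverse and the sizes under 2-fold, at log2 0.47 for PFKFB3 and -0.35 for PFKFB4. PFKFB2, another gene of this family and not among the members, had more counts than either in both K562 libraries, 1168 and 2637 (log2 1.15), and 123 and 83 counts in THP-1 (log2 -0.34). PDK1, a kinase that inhibits pyruvate dehydrogenase, the entry of pyruvate carbon into the citric acid cycle, had 42.1 and 37.6 CPM in K562 and 31.1 and 20.7 CPM in THP-1 (log2 -0.18 and -0.58).

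The payoff phase held the most counts and changed little in sum, with ENO2 and PKM past 2-fold. ENO2 (chr12:6913745-6923698, plus strand), the neuronal enolase, had 477 counts in DMSO and 1113 in periplocin in K562, and 37 and 100 in THP-1. It was 2.29-fold higher in K562 (log2 1.20, 1.04 to 1.35) and 3.16-fold higher in THP-1 (log2 1.66, 1.11 to 2.25), and no other member was past 2-fold higher in both lines. PKM (chr15:72199029-72231822, minus strand), the pyruvate kinase of most tissues, had 262.0 and 220.5 CPM in K562 and 617.9 and 1514.9 CPM in THP-1. Its level was 2.47-fold higher with periplocin in THP-1 (log2 1.31, 1.27 to 1.34) and slightly lower in K562 (log2 -0.26). PKLR, the pyruvate kinase gene of liver and red cells and not among the members, had 1186 and 3612 counts in K562 (log2 1.58) and 2 and 1 in THP-1. Counts per gene do not separate the M1 and M2 forms of PKM.

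The other payoff genes stayed within 2-fold in both lines. GAPDH, which served as the internal control for quantitative PCR in the study, had 1684.1 and 1314.0 CPM in K562 and 1566.8 and 1261.5 CPM in THP-1 (log2 -0.37 and -0.30). ENO1, the common enolase, had 1487.0 and 1242.5 CPM in K562 and 1036.0 and 913.3 CPM in THP-1 (log2 -0.27 and -0.17). Both were slightly lower with the drug in both lines, by more than counting error. PGK1, phosphoglycerate kinase, had 241.6 and 266.5 CPM in K562 and 418.6 and 538.7 CPM in THP-1 (log2 0.13 and 0.38). PGAM1, phosphoglycerate mutase, had 149.4 and 205.4 CPM in K562 and 407.1 and 321.8 CPM in THP-1, with opposite signs (log2 0.45 and -0.33). The lactate dehydrogenase subunits are LDHA, the form that favours lactate, and LDHB. LDHA had 412.5 and 631.3 CPM in K562 and 420.0 and 452.7 CPM in THP-1 (log2 0.60 and 0.12), and LDHB had 439.6 and 456.7 CPM and 568.6 and 395.3 CPM (log2 0.04 and -0.51). Genes of this phase have pseudogene copies named after them in GENCODE release 29, 62 for GAPDH, 13 for PGAM1, 6 for LDHA, 5 for PKM, 4 for ENO1, 3 for LDHB and 1 for PGK1. Members of other roles had such copies too, with 4 for TPI1, 3 for SLC2A3, 2 for ALDOA and 1 each for HK2, SLC16A1 and PGD. Reads could have been divided with those copies, and the levels of these genes are uncertain to that extent.

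All 4 gluconeogenic members with enough counts in THP-1 were past 2-fold lower there, as were 10.5% of the 12339 genes tested. Of the 4 tested in K562, PCK1 and PC were past 2-fold higher and PCK2 lower. Among all 11863 genes tested in K562, 8.86% were higher and 11.6% lower. FBP1 was past it with its whole counting interval in THP-1, as were 725 genes. PCK2 (chr14:24094053-24110598, plus strand), the mitochondrial form of phosphoenolpyruvate carboxykinase and a known target of the stress factor ATF4, had 202.5 CPM in DMSO and 50.7 in periplocin in K562, and 59.2 and 26.7 in THP-1. It was 4.03-fold lower in K562 (log2 -2.01, -2.12 to -1.90) and 2.2-fold lower in THP-1 (log2 -1.14, -1.29 to -0.98). PCK1, the cytosolic form of liver and kidney, had 3 counts in K562 DMSO and 139 in K562 periplocin, and 0 in both THP-1 libraries. Its ratio in K562 was 43.7 on the fold scale with a wide counting interval (log2 5.45, 3.93 to 7.80), and 139 counts were 8.39 CPM, a low level. A count of 0 in THP-1 allows up to 0.145 CPM with DMSO and 0.169 CPM with periplocin, from 3 counts of the total.

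PC (chr11:66848233-66958376, minus strand), pyruvate carboxylase, which makes oxaloacetate in mitochondria, was the member past 2-fold in opposite directions. It had 479 and 1322 counts in K562 (log2 1.44, 1.29 to 1.59) and 121 and 48 counts in THP-1 (log2 -1.10, -1.62 to -0.61). FBP1 (chr9:94603133-94640249, minus strand), fructose bisphosphatase, had 0 counts in both K562 libraries, and 303 counts with DMSO and 92 with periplocin in THP-1, 2.81-fold lower (log2 -1.49, -1.84 to -1.15). G6PC3, the glucose phosphatase that neutrophils need, had 31.4 and 16.7 CPM in K562 and 29.3 and 14.4 CPM in THP-1. Its log2 fold change was -0.92 in K562, just inside the 2-fold line, and -1.01 in THP-1, just outside it, and both intervals (-1.13 to -0.70 and -1.23 to -0.80) span that line.

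GALK1 (chr17:75751594-75765711, minus strand), galactokinase, which opens the route from galactose into glycolysis, had the lowest fold change of the members in both lines. In K562 it had 492 counts in DMSO and 115 in periplocin, and THP-1 had 564 and 140. The untreated lines were close to each other (log2 -0.01, -0.19 to 0.16), and both drug libraries lay below both DMSO libraries. It was 4.35-fold lower in K562 (log2 -2.12, -2.43 to -1.83) and 3.43-fold lower in THP-1 (log2 -1.78, -2.06 to -1.51), rank 278 of 11863 and 333 of 12339 genes from the lowest fold.

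Of the 4 pentose phosphate members, PGLS alone was past 2-fold lower in K562, where 11.6% of all tested genes were. In THP-1, 0 of the 4 were past it, where 10.5% of all tested genes were lower. With 4 genes, counts of 1 and 0 lie about these shares. PGLS (chr19:17511629-17521288, plus strand), the lactonase of the oxidative branch, had 38.7 CPM in DMSO and 10.1 in periplocin in K562, and 84.4 and 42.1 in THP-1, which was 3.84-fold lower in K562 (log2 -1.94, -2.20 to -1.69) and 1.99-fold lower in THP-1 (log2 -0.99, -1.12 to -0.87). PGD, phosphogluconate dehydrogenase, the second NADPH-yielding step, had 326.8 and 171.6 CPM in K562 and 205.7 and 137.2 CPM in THP-1 (log2 -0.94 and -0.57). TKT, transketolase, had 135.9 and 178.5 CPM in K562 and 262.4 and 225.5 CPM in THP-1 (log2 0.38 and -0.21). TALDO1, transaldolase, had 349.2 and 363.2 CPM and 174.6 and 138.4 CPM (log2 0.05 and -0.32).

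A second question was which isoenzyme served each step, taken as its share of counts per kb of the longest coding transcript within a library. Such shares do not depend on the scaling between libraries, and the fold change of a ratio between isoenzymes depends on neither scaling nor length. SLC2A1 was 39.7% of the glucose carrier pair in K562 DMSO, with a 95% exact binomial interval of 38.5% to 40.9%, and 92.7% in K562 periplocin, and 96.2% and 97.4% in THP-1. The SLC2A1 to SLC2A3 ratio was thus 19.3-fold higher with periplocin in K562 and 1.48-fold higher in THP-1. PFKFB4 was 18.3% of its pair in K562 DMSO and 73.6% in K562 periplocin, a ratio to PFKFB3 that was 12.4-fold higher, and 34.2% and 22.8% in THP-1, a ratio 1.77-fold lower. Within both pairs the larger share in K562 was held by another gene with periplocin than in DMSO, also per kb of merged exons and with no length correction. The shares are of the member genes only, and PFKFB2, which had the most counts of its family in K562, was left out of them.

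The hexokinase, dehydrogenase and enolase pairs moved the same way in both lines without a change of leader per kb of coding transcript. Leads between isoenzymes of like level depended on the length used, since per kb of merged exons the phosphofructokinase lead changed in K562, and with no length correction it changed in THP-1 and the lead of LDHA and LDHB changed in both lines. HK2 was 5.74% and 2.20% of the pair of HK1 and HK2 in K562 and 19.3% and 7.50% in THP-1, so the HK1 to HK2 ratio was 2.71-fold and 2.94-fold higher with periplocin. HK3, a hexokinase of myeloid cells that is not among the members and was left out of the pair, had 0 counts in both K562 libraries and 406 and 39 counts in THP-1 (log2 -3.15). LDHA was 37.4% and 46.8% of the dehydrogenase pair in K562 and 32.0% and 42.2% in THP-1, ratios to LDHB that were 1.47-fold and 1.55-fold higher. ENO2 was 1.60% and 4.29% of the enolase pair in K562 and 0.143% and 0.510% in THP-1, ratios to ENO1 that were 2.76-fold and 3.57-fold higher. ENO2 thus remained a small part of the counts of this pair despite its fold. ENO3, another enolase gene, is not among the members and was left out of the pair. It had 171 and 259 counts in K562 (log2 0.57) and 59 and 25 counts in THP-1 (log2 -1.01). PFKL was 62.9% and 49.1% of the phosphofructokinase counts in K562 and 49.3% and 34.9% in THP-1, where PFKP was 49.4% and 64.0%, and the PFKL to PFKP ratio was 1.58-fold and 1.83-fold lower. PFKM did not follow one direction, with a share of 9.37% and 16.7% in K562 and of 1.27% and 1.12% in THP-1, where the counting intervals overlap.

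Besides the PFKFB pair, the aldolases and the lactate carriers had ratios that moved in opposite directions in the lines. ALDOC was 1.27% and 2.76% of the aldolase pair in K562 and 1.16% and 0.526% in THP-1, so its ratio to ALDOA was 2.20-fold higher in K562 and 2.23-fold lower in THP-1. SLC16A3 was 0.848% and 0.382% of the lactate carrier pair in K562 and 39.3% and 52.8% in THP-1. Its ratio to SLC16A1 was 2.23-fold lower in K562 and 1.73-fold higher in THP-1, where the change of leader per kb of coding transcript was not seen per kb of merged exons. SLC16A7, a carrier gene of the same family, is not among the members and was left out of the pair. It had 0 counts in both K562 libraries and 884 and 712 counts in THP-1 (log2 -0.08). PCK1 was 0.0521% of the carboxykinase pair in K562 DMSO and 8.73% in K562 periplocin, from 3 and 139 counts, and PCK2 remained the main form.

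**Figure D3:**
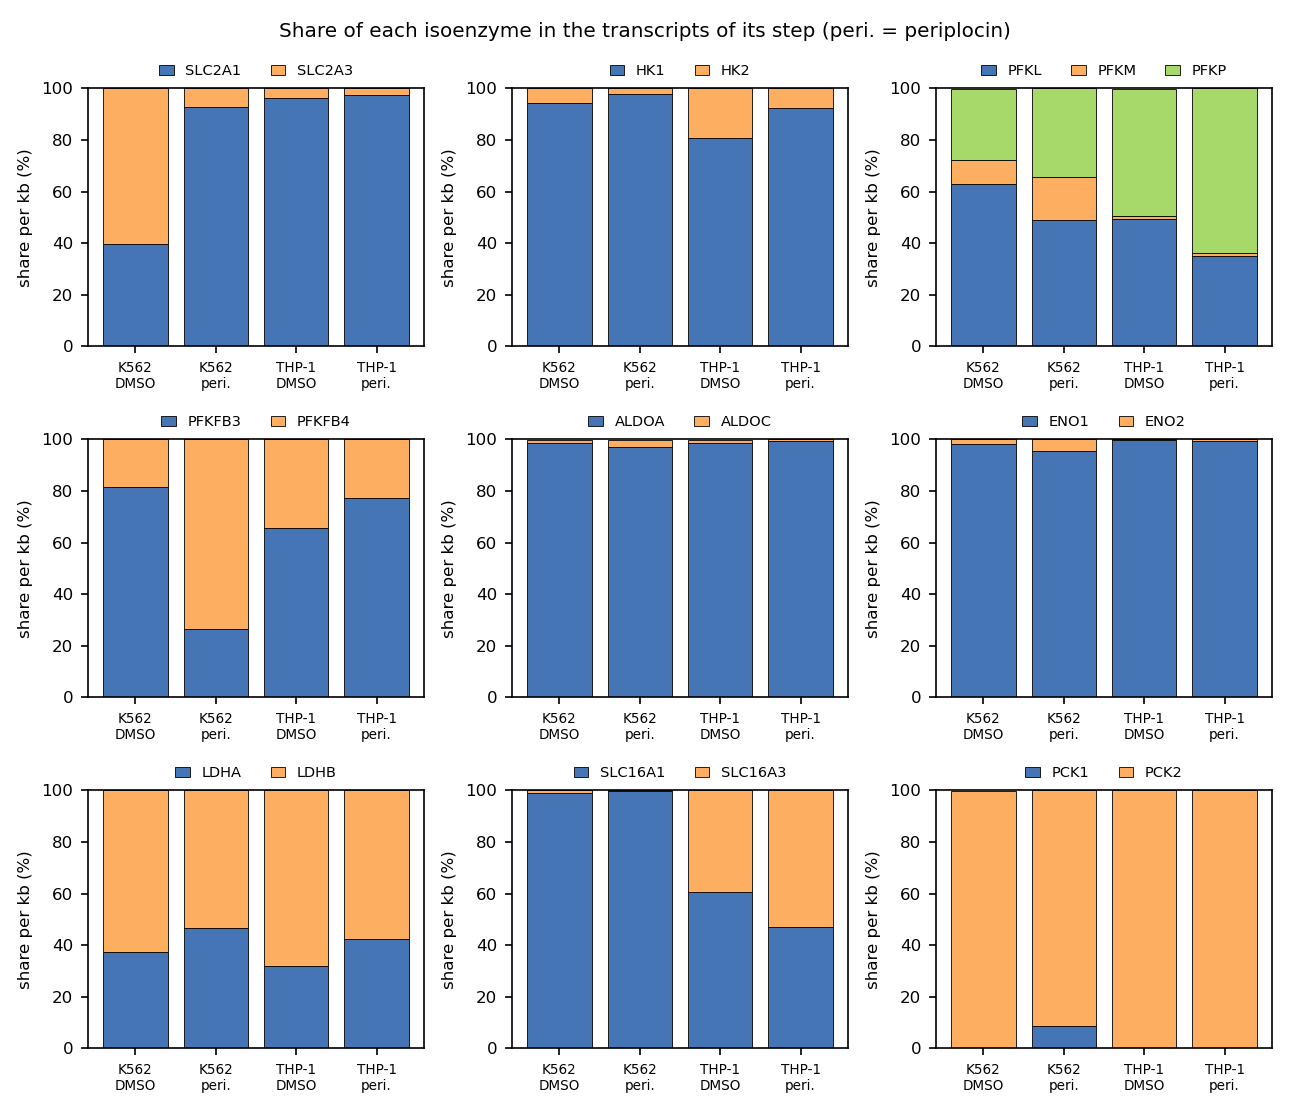
Share of each isoenzyme in its step (percent, per kb of the longest coding transcript) in the 4 libraries, 1 stacked bar per library. SLC2A1 goes from 39.7% to 92.7% and PFKFB4 from 18.3% to 73.6% between K562 DMSO and K562 periplocin, while the HK2 share is smaller and the LDHA share larger with periplocin in both lines.

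Summed over all members, the pathway took a near constant share of each library. The 34 genes were 0.851% of K562 counts in DMSO and 0.895% in periplocin, with 0.792% and 0.786% for THP-1, a fold of the TMM-scaled sum of 1.04 in K562 and 1.00 in THP-1. With PKM left out, a choice made after seeing the data, the fold was 1.05 in K562 and 0.876 in THP-1, so that PKM offset the lower sum of the other 33 genes in THP-1. Under this sum the roles moved apart. The sum of the 4 transporters was 1.49-fold higher in K562, carried by SLC2A1, while the other 3 were each lower and the median log2 fold change was -0.99. In THP-1 this sum was 0.748 of the DMSO level. The sum of the 9 preparatory enzymes was 1.33-fold higher in K562 and at 0.971 in THP-1. The sum of the 8 payoff genes was at 0.929 in K562 and 1.08 in THP-1, and without PKM at 0.935 and 0.887. The 3 regulators summed to 0.923 and 0.996. The sum of the 5 gluconeogenic genes was lower in both lines, at 0.587 in K562 and 0.453 in THP-1, although PCK1 and PC were higher in K562. The sum of the 4 pentose phosphate genes was at 0.844 and 0.753, although TKT (log2 0.38) and TALDO1 (log2 0.05) were not lower in K562. The gluconeogenic sum was 4314 and 2577 counts in K562, of which PCK2 was 3318 and 839 and PC 479 and 1322, and 2248 and 868 in THP-1. PCK2 thus carried the lower sum in K562, where the counts of the other gluconeogenic genes together were higher with periplocin.

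**Figure D4:**
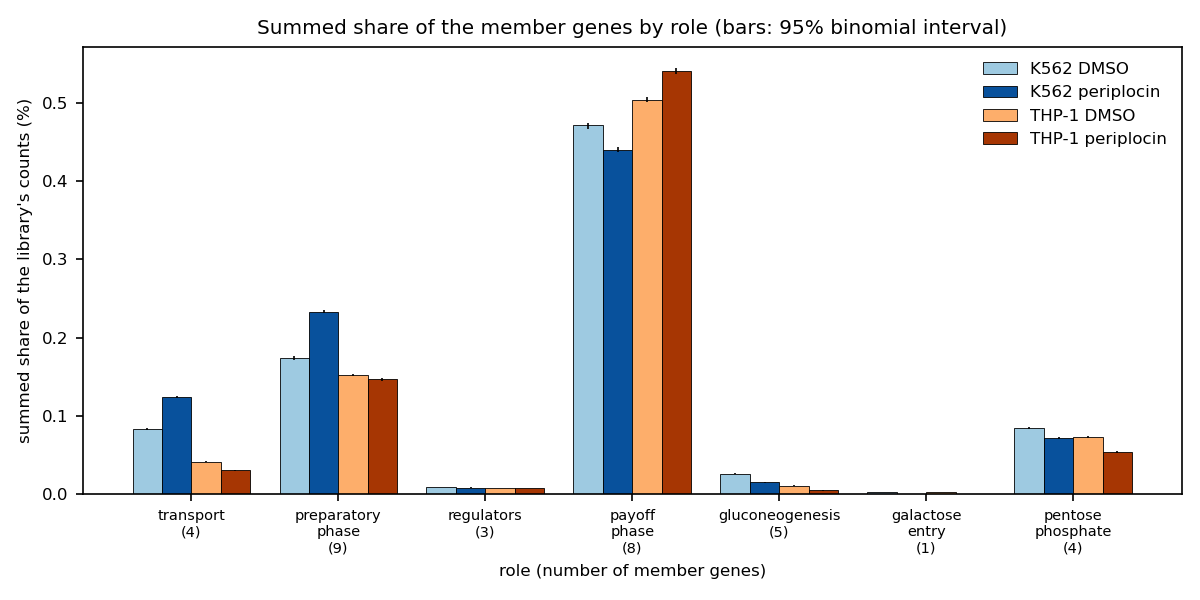
Summed share of each library's counts (percent) taken by the members of each role, 1 bar per library, with 95% exact binomial intervals for counting error. The payoff phase is the tallest group in every library, at 0.440% to 0.540%, and gluconeogenesis goes from 0.0263% to 0.0156% (K562) and 0.0109% to 0.0049% (THP-1).

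The third question was whether the lines shared the response. Of the 32 members tested in both lines, 5 were past 2-fold lower in both (SLC2A3, HK2, PFKL, PCK2 and GALK1), where 2.72% of the 10780 genes tested in both were, 1 was past 2-fold higher in both (ENO2), where 1.72% were, and 1 was past it in opposite directions (PC), where 1.3% were. With the whole counting interval past 2-fold, only GALK1 of the 5 was left lower in both, where 1.09% of the genes were, and ENO2 was left higher in both, where 0.853% were. A further 16 were within 2-fold in both lines. By sign alone, 6 members were higher in both, 13 lower in both and 13 of opposite sign, beside 61.7% of the 10780 genes with the same sign in both lines, which is close to the members' share. The lines' log2 fold changes differed by 1 or more for 8 of the 32 members, and for 20.8% of the 10780 genes. Of these 8, SLC2A1, PFKFB4, ALDOC, PC and GPI had the higher fold in K562, and PFKFB3, SLC16A3 and PKM the higher fold in THP-1.

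**Figure D5:**
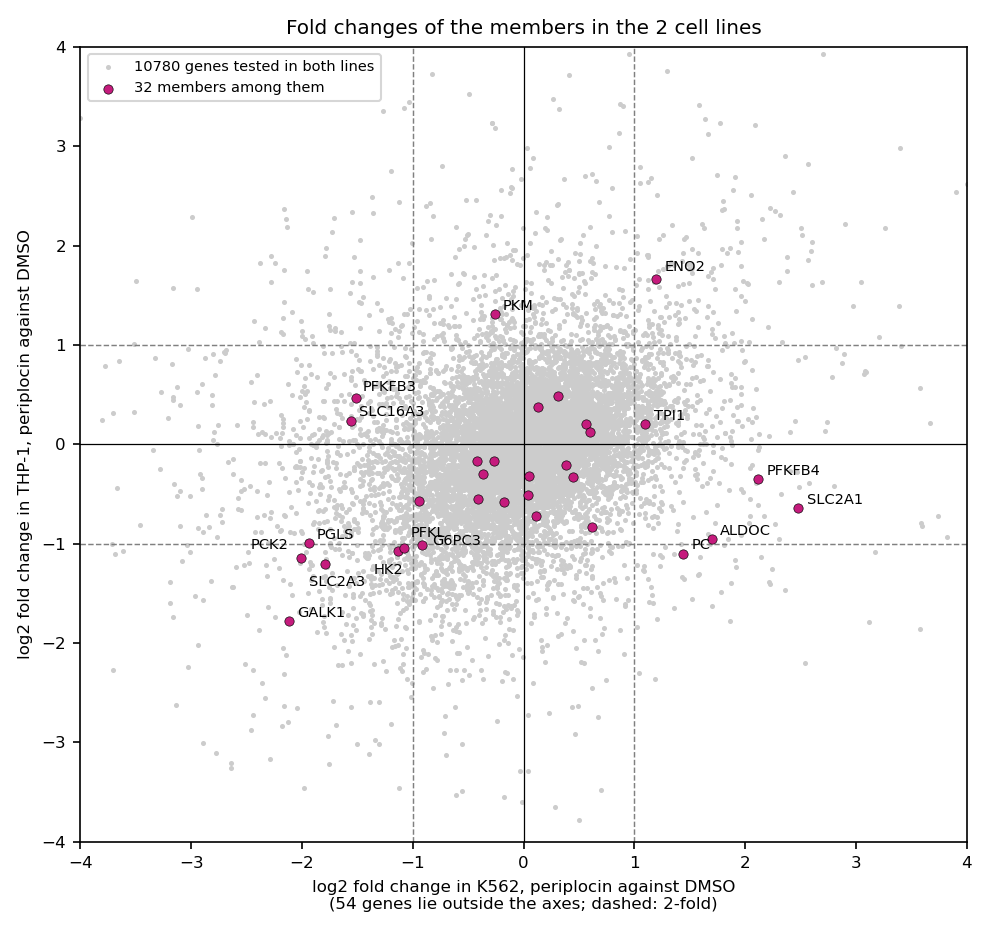
Log2 fold change with periplocin in K562 (horizontal) against THP-1 (vertical) for the 32 members tested in both lines (filled points) over all 10780 genes tested in both (grey), with 2-fold as dashed lines and names on the members past it in either line. GALK1, PCK2, SLC2A3, HK2 and PFKL lie in the lower left, ENO2 in the upper right, and PC in the lower right past both lines.

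The only fit with an error term was the joint fit over the 4 libraries, with treatment and cell line as terms and 1 residual degree of freedom, so that its error is the difference between the responses of the lines. By edgeR's quasi-likelihood test with Benjamini-Hochberg adjustment, 0 of 33 members passed 0.05, and 0 of all 13584 genes did (0%). At an unadjusted p under 0.05 there were 1535 genes (11.3%), among them 9 members, which were ENO2 on the higher side and SLC2A3, HK2, PFKL, PCK2, G6PC3, GALK1, PGLS and PGD on the lower side. The smallest adjusted p of a member by edgeR was 0.359, shared by SLC2A3, PCK2 and GALK1. DESeq2 with the same terms passed 131 of the 11213 genes to which it gave an adjusted p (1.17%), among them 3 members, all lower in both lines. Their adjusted p by DESeq2 was 0.0284 for SLC2A3, 0.0322 for PCK2 and 0.0468 for GALK1. These 3 members were thus called by DESeq2 and not by edgeR, and ENO2 had an adjusted p of 0.369 by edgeR and 0.181 by DESeq2.

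Between the untreated lines the members were past 2-fold about as often as all genes. In THP-1 DMSO against K562 DMSO, 7 of the 33 members tested were at least 2-fold higher and 7 at least 2-fold lower, where 22.8% of 12846 genes were higher and 21.1% lower. Lower in THP-1 were SLC2A3 (log2 -4.58), ENO2 (-3.89), HK1 (-2.54), PFKM (-2.54), PC (-2.20), SLC16A1 (-1.88) and PCK2 (-1.65). Higher in THP-1 were FBP1, SLC16A3 (4.36), PGAM1 (1.57), PKM (1.36), PGLS (1.25), PFKP (1.17) and TKT (1.07). FBP1 was at least 87.2-fold higher, from 303 counts against 0 and a floor of 3 counts in the K562 library. The line of origin and the library cannot be told apart here. SLC2A1 and TPI1 were within 2-fold between the untreated lines, and their K562 periplocin levels of 842.9 and 388.8 CPM stood above the other 3 libraries.

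Genes of the same pathways outside the members gave the setting, and their counts stand beside 8.86% of all tested genes higher and 11.6% lower in K562, and 8.03% and 10.5% in THP-1. With lists this short, counts of 1 or 2 lie about these shares. Of 23 tested glycolysis and pyruvate genes outside the members, 5 were past 2-fold higher and 0 lower in K562 (median log2 0.53), and of 29 in THP-1, 2 were higher and 5 lower (median 0.07). PDK4, a sister kinase of PDK1, was the gene of that list past 2-fold higher in both lines, with 427 and 2264 counts in K562 (log2 2.38) and 129 and 406 in THP-1 (log2 1.88). Of the pentose phosphate genes outside the members, 0 of 12 were higher and 2 lower in K562 (median -0.26), and 0 of 13 were higher and 2 lower in THP-1 (median -0.40). The largest of these folds were TKTL1 in K562, with 35 and 3 counts (log2 -3.52, counting SE 0.87), and RBKS, ribokinase, in THP-1, with 176 and 53 counts. Among the galactose, glycogen and hexose genes, 2 were higher and 4 lower of 28 in K562, and 0 higher and 4 lower of 28 in THP-1. PYGL, the liver glycogen phosphorylase, was lower in both lines, with 915 and 320 counts in K562 (log2 -1.54) and 5181 and 1255 in THP-1 (log2 -1.82). The gluconeogenesis and shuttle genes outside the members had 1 lower of 12 in K562, GOT1 (log2 -1.46), and 1 lower of 13 in THP-1, SLC37A4, the glucose phosphate carrier of the endoplasmic reticulum (log2 -2.78).

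Of the regulators of these genes, 1 was higher and 1 lower of 18 tested in K562, and 4 were higher and 1 lower of 17 in THP-1, beside the same shares of all genes. No test compared the lines here. The largest fold in K562 was ARRDC4, a target of the glucose-sensing factors MondoA and ChREBP that restrains glucose uptake, with 2983 and 1109 counts (log2 -1.45), and it was higher in THP-1, with 587 and 1403 counts (log2 1.49). The largest in THP-1 was MLXIPL, which encodes ChREBP itself, with 58 and 272 counts (log2 2.46). MYC, whose product reads the E-box and which fell outside the naming rule, had 324.9 and 174.5 CPM in K562 (log2 -0.91) and 285.6 and 57.8 CPM in THP-1 (log2 -2.29), and its part in the changes of E-box genes was not tested.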

How the data were processed

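RNA from 4 libraries was read from the table of estimated counts per gene that the authors deposited, which was neither normalized nor pooled. HISAT2, StringTie 1.3.1 and hg38 are named in the submitters' processing notes, and the counting program and annotation are not given in the sources used here. The sample labels and the methods name different sequencing instruments. The table holds 0 unused columns, and not all of its values are whole numbers. A program that divides ambiguous reads gives counts that are not independent reads, so intervals and floors are the least error. Deeper libraries give narrower intervals, but the totals of 16381158 to 20622681 counts differ little. Strand use in counting is not stated, so overlapping antisense genes cannot be separated.

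Counts were rounded and scaled by TMM over each pair with edgeR 4.0.16 in R 4.3.3, with a prior count of 0.125 for log2 fold changes and exact 95% intervals. A gene needed a mean of 1 CPM over the pair to be counted at 2-fold. The joint fit used edgeR's quasi-likelihood test on genes that reached 10 counts in 2 or more libraries, at an adjusted p of 0.05. DESeq2 1.42.0 was the alternative, and 2371 genes without its adjusted p stayed out. Coordinates, lengths and exons came from GENCODE release 29 on GRCh38, in which 20094 identifiers were found. Promoters on chromosome 8 stayed out of the motif search. Scripts used Python 3.11.15, numpy 2.4.6, pandas 2.3.3, scipy 1.17.1 and matplotlib 3.10.9, and were tested on simulated data.

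Members and lists were chosen with earlier results of these data known. The naming rule gave every member, and of each other list the genes past 2-fold in the same direction in both lines or, failing that, the largest fold in each line. MYC, PFKFB2, HK3, PKLR, SLC16A7 and ENO3 were picked outside it with their values in view. Alternatives were other scalings, filters, folds, prior counts, unrounded counts and lengths, and genes of mitochondrial origin left out.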

Additional observations from a re-analysis of the deposited data

Results flagged for a closer look

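These results were set apart because the log2 fold change with periplocin had opposite signs in the lines, beyond counting error in each, and the lines were at least 2-fold apart. With 1 library per condition the difference between lines was not tested for any of them. The THP-1 minus K562 difference in log2 fold change was -3.12 for SLC2A1, -2.65 for ALDOC, -2.54 for PC, -2.47 for PFKFB4 and -1.45 for GPI, which were higher with periplocin in K562 and lower in THP-1. It was 1.98 for PFKFB3, 1.80 for SLC16A3 and 1.56 for PKM, which were lower in K562 and higher in THP-1. The SLC16A3 value rests on 67 and 23 counts in K562 and the PC value on 121 and 48 counts in THP-1. The K562 erythroid marker list moved from 2377.8 to 8316.2 CPM in the same pair of libraries, and its part in these differences was not tested.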

How the results depend on the processing

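Of 594 member fold changes recomputed under other scalings, prior counts and unrounded counts, 3 crossed the 2-fold line, all with library totals (PGLS in THP-1 and TALDO1 in untreated cells to at least 2-fold lower, and TKT in untreated cells to 0.95), and 3 turned sign. Among the 594, 20 moved outside the counting interval, such as GAPDH in K562 with DESeq2 size factors (log2 -0.34 in place of -0.37). The interval does not cover the choice of scaling. With totals the untreated median of the members was -0.10 in place of 0.02, after a scaling shift of -0.12 between the lines. Requiring the whole counting interval past 2-fold left 5 members lower in K562 (SLC2A3, PFKFB3, PCK2, GALK1, PGLS) and 2 in THP-1 (FBP1, GALK1), with 656 genes higher and 818 lower for K562, and 637 and 725 for THP-1. At 1.5-fold, 13 members were lower in THP-1 and 11 higher in untreated THP-1 (4040 of all genes), with 2256 genes higher and 2615 lower for K562, and 2126 and 2620 for THP-1. With no filter there were 2635 higher and 2525 lower in K562, 2292 and 2493 in THP-1, and 4563 higher in untreated THP-1. At a mean of 5 CPM, 913 were lower in K562 and 633 higher and 846 lower in THP-1, and 1 member, PKM, was higher in THP-1. Under this filter 6 members were higher and 7 lower in K562, and 7 were lower in THP-1. PCK1 and SLC16A3 in K562 and ENO2 and PC in THP-1 fell below it. No member was then past 2-fold higher in both lines. In the joint fit by edgeR, 1 gene, not a member, was called with no filter and 1 with library totals, against 131 genes and 3 members by DESeq2, and the cause was not tested. With no length correction the leading isoenzyme changed in 6 of 18 pairs of step and line, against 3 per kb. Per kb of merged exons these were SLC2A, PFK and PFKFB in K562, and per kb of coding transcript SLC2A and PFKFB in K562 and SLC16A in THP-1. With single genes left out, chosen after seeing the data, the K562 transporter sum was at 0.584 in place of 1.49 without SLC2A1, and the THP-1 payoff sum at 0.887 in place of 1.08 without PKM. Outside mitochondrially encoded genes the members' summed shares were 0.902% and 0.914% for K562 and 0.836% and 0.818% for THP-1. Depth limits SLC2A3, PC, PFKM and ALDOC in THP-1 and SLC16A3 in K562, whose intervals span 2-fold. Intervals also spanned 2-fold for HK2, PFKL and G6PC3 in both lines, PGD in K562, and PCK2 and PGLS in THP-1.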
